A study of Mus musculus with 2 samples.

Results

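Complex II, complex IV and ATP synthase are the parts of the mitochondrial oxidative phosphorylation chain described here, together with cytochrome c, the small electron carrier that feeds complex IV. The rule for members uses their symbols and no measured value, although it was written with earlier results of these data known: Sdha to Sdhd, Cycs, and the protein coding genes of the Cox4 to Cox8 and Atp5 families that encode subunits. This gave 40 of the 20330 genes in the table, of which the 34 that reached an FPKM of 1 in either library were compared. FPKM is the number of sequenced fragments scaled to transcript length and library size, a level per length. Changes are given as KO minus WT on the log2(FPKM + 1) scale, and folds as plain FPKM ratios.

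The RNA came from adipose tissue macrophages (ATM), sorted with F4/80 and CD11b antibodies from visceral fat of C57BL/6 mice after 12 wk of high-fat diet (HFD), which the study's methods start at 4 wk of age. The WT library was from hMRP8cre-;Hif-1αfl/fl;ApoE-/- mice and the KO library from hMRP8cre+;Hif-1αfl/fl;ApoE-/- mice, so both lacked ApoE and both carried the floxed Hif-1α alleles. Cre in the KO was driven by the promoter of human MRP8 (S100A8), a calcium-binding protein of myeloid cells and abundant in neutrophils. There was 1 library per genotype and no replicate, so no difference below has a check against the spread between animals and no test was run. The sources used here do not say whether a library pooled several mice.

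Complex II (succinate dehydrogenase) links the citric acid cycle to the chain: it oxidises succinate and passes the electrons to ubiquinone. Complex IV (cytochrome c oxidase) takes electrons from cytochrome c, reduces oxygen to water and pumps protons, and ATP synthase lets protons flow back through its membrane ring to drive ATP formation in its head. HIF-1 is the oxygen-regulated transcription factor best known for moving cells from respiration toward glycolysis, and in macrophages the balance between these routes is a known feature of their activation state. The mitochondrially encoded subunits of complex IV and ATP synthase had no row under their symbols and so were not analysed here.

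The libraries held 9773 (WT) and 10124 (KO) genes above 0. Hif1a, the targeted gene, was at 30.4 FPKM in WT against 21.0 in KO over the whole gene, a change of -0.52, and its floxed exon was not looked at alone. The genes behind the sort were high in both libraries, with Adgre1 (F4/80) at 299 and 239 FPKM and Itgam (CD11b) at 128 and 128. Of 10 macrophage markers listed, 9 had a row, and their summed FPKM was 11972 in WT and 12013 in KO with none past 3-fold. Apoe, disrupted in both genotypes, was at 94.3 and 117 FPKM over the whole gene. The summed FPKM of 5 neutrophil markers was 153 in WT and 510 in KO, most of it from S100a8 (73.3 and 182) and S100a9 (63.4 and 301.4). Csf3r was at 15.5 and 24.1 FPKM, Retnlg at 0.385 and 2.46, and Mmp8 at 0 in both. The 4 compared were all higher in the KO library, and 1 of them, S100a9, was at least 3-fold higher. Fibroblast markers summed to 43.2 and 84.3 FPKM, of which Dcn made up 35.0 and 62.3. The 5 fibroblast markers compared were all higher in the KO library. Of these, 2 were at least 3-fold higher, Col1a2 (0.0948 and 4.75 FPKM) and Pdgfra (0.0246 and 4.98). Adipocyte markers summed to 553 and 319 FPKM, of which Lpl made up 457 and 219. The other adipocyte markers did not follow that sum, with Fabp4 at 90.1 and 91.4 FPKM, Cfd at 0 and 7.11, Lep at 0 and 1.60, Cidec at 5.83 and 0, and Adipoq, Plin1 and Retn at 0 in both. The part of these other cells in the values below was not tested, and fewer cells of a type and less RNA per cell cannot be told apart in bulk RNA.

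Most of the members were lower in the KO library. Of the 34 compared, 26 had a change below 0, against 48.7% of all 10297 genes compared, and the median change of the members was -0.59 against 0.03 over all genes. At least 3-fold lower on the log2(FPKM + 1) scale were 6 members, Sdha, Sdhd, Cox5b, Cox7a1, Atp5k and Atp5mpl, and none was at least 3-fold higher. The same threshold held 13.7% of all genes compared on the lower side and 13.6% on the higher side, so the count of lower members was near the background. At 2-fold, 11 members were lower and none higher, where the background was 22.5% lower and 23.1% higher. The summed FPKM of the members was 8052 in WT and 5469 in KO, or 1.37% and 0.962% of all FPKM in the library.

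**Figure D1:**
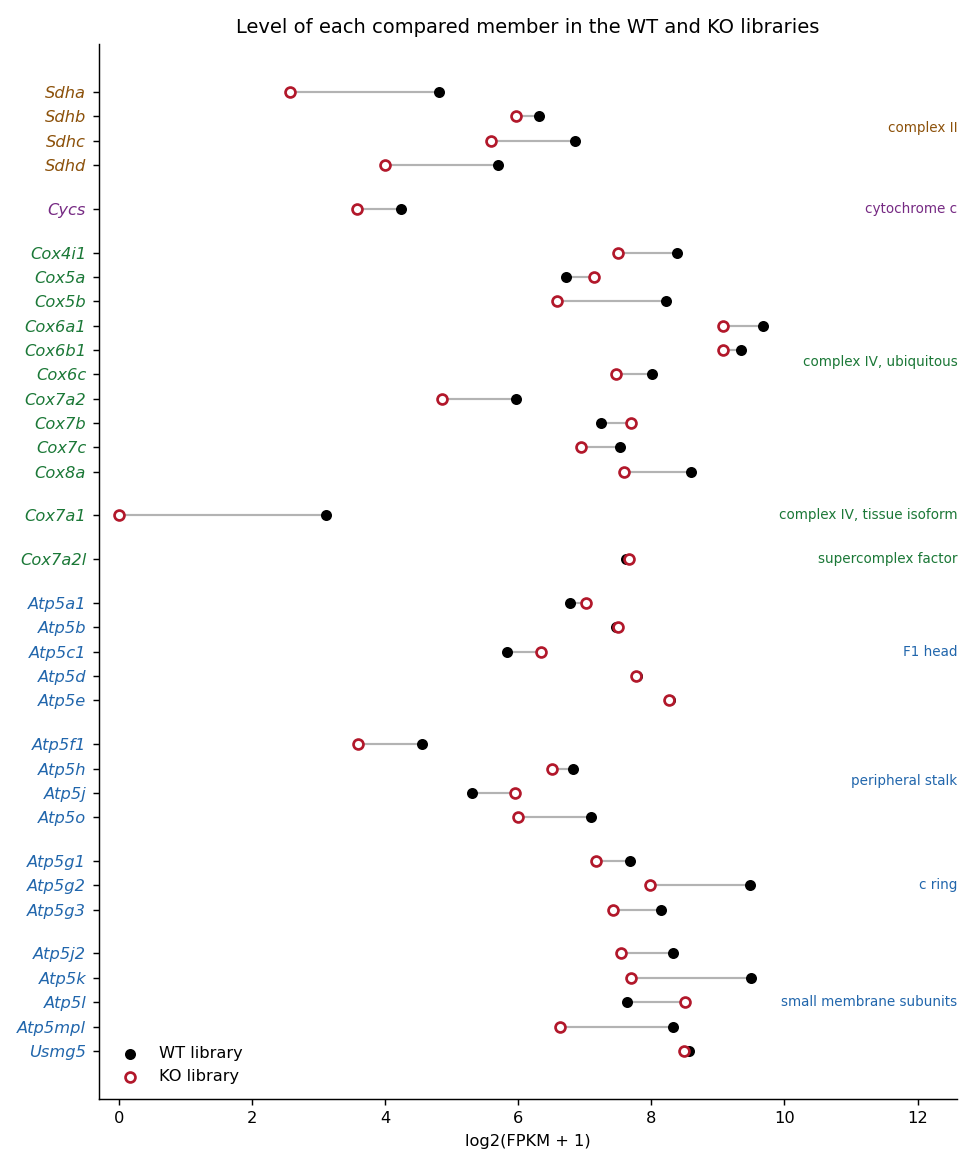
Level of the 34 compared members, as log2(FPKM + 1) on the x axis, in the WT library (filled) and the KO library (open), grouped by complex and part; a line joins both values of a gene. The open point lies to the left for 26 members, and the points of Atp5b, Atp5d and Atp5e nearly coincide.

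The changes of all genes spread widely, with quartiles at -0.85 and 0.89, so the abundant members were also read against abundant genes. Among the 1415 genes with a mean FPKM of at least 50, 2.61% were at least 3-fold lower and 0.848% at least 3-fold higher. Of the 27 members at this level, 3 were at least 3-fold lower (Cox5b, Atp5k and Atp5mpl) and 20 had a change below 0, with a median of -0.51 against -0.01 over the 1415 genes. These 3 have transcripts under 1000 nt, and such calls were more frequent among short genes. At this level 29 of 323 genes under 1000 nt were at least 3-fold lower, against 8 of 1069 longer ones. The middle range of those genes (lower to upper quartile) ran from -0.36 to 0.32. At 2-fold, 7 of the 27 members were lower and none higher, against 7% and 4.52% of genes. Levels of the 34 members kept much of their order between the libraries (Pearson's r = 0.895, Spearman's rho = 0.834, across genes of 1 library each, a description). Cox6a1 was the most abundant member in both.

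All 4 subunits of complex II were lower in KO, with a median change of -1.48 and a summed FPKM of 271 in WT and 129 in KO. Sdha, the flavoprotein that holds the succinate site, was at 27.1 FPKM in WT against 4.94 in KO, 5.49-fold lower (change -2.24). Sdhd, a membrane anchor subunit, was at 50.9 and 15.0 FPKM, 3.39-fold lower (change -1.70). Sdhc, the other membrane anchor, was at 115 and 47.5 FPKM, 2.42-fold lower and within the 3-fold threshold (change -1.26). Sdhb, the iron-sulfur subunit that sits between Sdha and the anchors, differed least, at 78.6 and 61.8 FPKM (change -0.34). The catalytic pair therefore stood further apart in KO: the ratio of Sdha to Sdhb was 0.345 in WT and 0.0798 in KO, while that of Sdhd to Sdhc was 0.444 and 0.316. These are among the longer members (1142 to 3171 nt). From the smallest steps in the FPKM values, about 466 fragments stood behind the Sdha value in WT and 107 in KO, and 337 and 123 behind that of Sdhd. Neither shares a 50-base stretch of its transcripts with another annotated gene. Of 4 assembly factors of complex II, Sdhaf1 was at 28.2 and 27.0 FPKM and Sdhaf2 at 4.05 and 4.66, while Sdhaf3 and Sdhaf4 were at 0 in both.

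The Sdha gene (ENSMUSG00000021577) lies on chr13:74322254-74350280 (- strand) of GRCm38, the reference build used here for positions, and Sdhd (ENSMUSG00000000171) on chr9:50596357-50603812 (- strand). The 150 bases before their RefSeq starts, chr13:74350241-74350390 (- strand) and chr9:50603850-50603999 (- strand) in GRCm38.p6, are shown because these are the 2 complex II genes furthest apart between the libraries and both hold matches to the element of NRF1 (nuclear respiratory factor 1), a transcription factor known to bind promoters of respiratory chain genes. Matches were searched on both strands. Capitals mark the NRF1 element (the runs of 10 letters, of which the sixth may be any base), CCGGAAG (the core of ETS factor sites, here read on the other strand) and ACGTG (the core of the hypoxia response element).
Sdha: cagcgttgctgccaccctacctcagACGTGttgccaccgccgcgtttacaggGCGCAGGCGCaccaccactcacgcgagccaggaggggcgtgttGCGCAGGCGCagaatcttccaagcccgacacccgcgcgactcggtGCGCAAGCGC
Sdhd: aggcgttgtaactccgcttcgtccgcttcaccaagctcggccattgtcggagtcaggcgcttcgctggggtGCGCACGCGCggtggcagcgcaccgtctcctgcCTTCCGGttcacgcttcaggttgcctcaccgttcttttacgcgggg

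Sdha held 3 NRF1 matches, which begin at -98, -55 and -10 from the start, and 1 ACGTG match at -125. Sdhd held 1 NRF1 match at -79 and 1 ETS match at -46.

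Cycs, the somatic cytochrome c gene, was at 18.0 FPKM in WT against 10.98 in KO (change -0.66). Of its distinct 50-base stretches 28.2% also occur in transcripts of other genes, among them processed copies, so its value is uncertain.

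Complex IV had 18 genes in the table and 12 compared, with a median change of -0.59 and a summed FPKM of 3447 in WT and 2416 in KO. Of its 10 ubiquitous subunits 8 were lower and 2 higher. Cox5b, a zinc-binding subunit on the matrix side, was at 297 FPKM in WT against 95.4 in KO, 3.12-fold lower (change -1.63). It shares 25.9% of its 50-base stretches with 1 other gene, a copy named Gm11273. Its partner on the matrix side, Cox5a, ran the other way, at 104 and 139 FPKM (change 0.41), so the ratio of Cox5b to Cox5a was 2.85 in WT and 0.685 in KO. Cox7b, a small membrane subunit, was also higher in KO, at 150 and 206 FPKM (change 0.46). Neither of the higher values reached 2-fold.

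The other ubiquitous subunits of complex IV were lower within 3-fold. Cox7a2, a small membrane subunit, was at 61.4 and 28.1 FPKM (change -1.10). Cox8a, a very small membrane subunit, was at 388 and 191 FPKM (change -1.01), and these 2 subunits were past 2-fold. Cox4i1, which binds adenine nucleotides and sets how the enzyme responds to ATP, was at 334 and 181 FPKM (change -0.88). The remaining members, Cox6a1 (815 and 539 FPKM), Cox6c (258 and 177), Cox7c (183 and 122) and Cox6b1 (651 and 537), had changes from -0.60 to -0.28, and of these Cox6a1, Cox6c and Cox7c share 12.3%, 21.1% and 53.0% of their 50-base stretches with other genes. Cox6a1 and Cox6b1, which contact the other monomer in the complex IV dimer, were the most abundant subunits of complex IV in both libraries.

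Of the 7 tissue isoforms of complex IV, 6 were listed at 0 in both libraries. In this table an exact 0 is not read as absence, since Ndufab1, Cox11, Sco1, Taco1 and Tmem70, which respiring cells use in general, were also listed at 0 in both. Cox4i2 (the hypoxia-linked form of subunit 4 in lung), Cox6a2 and Cox8b (heart and muscle forms) and Cox6b2, Cox7b2 and Cox8c (testis forms) were these 6. Cox7a1, the heart, muscle and brown fat form of subunit 7a, was at 7.62 FPKM in WT and listed at 0 in KO. Its WT value stood for an estimated 9.82 fragments, and 3 fragments in KO would have read 2.04 FPKM, so this difference rests on few reads. Of 8 muscle markers 7 were at 0 in both libraries, and of 7 brown or beige fat markers only Ucp1 was above 0, at 8.34 and 12.0 FPKM. Cox7a2l, a relative of subunit 7a that helps to join complexes III and IV into supercomplexes, was at 197 and 201 FPKM (change 0.03) and shares 19.8% of its 50-base stretches with 1 other gene. The ratio of Cox7a2 to Cox7a2l was 0.312 in WT and 0.140 in KO, with this uncertainty.

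The Cox5b gene (ENSMUSG00000061518) lies on chr1:36691449-36693681 (+ strand), and the 150 bases before its RefSeq start, chr1:36691337-36691486 (+ strand), are shown as the promoter of the ubiquitous complex IV subunit with the largest change. None of the searched letters occurs in this window.
Cox5b: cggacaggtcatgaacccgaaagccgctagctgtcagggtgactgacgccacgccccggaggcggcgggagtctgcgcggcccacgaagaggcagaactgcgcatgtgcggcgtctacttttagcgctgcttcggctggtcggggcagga

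Assembly factors of complex IV, which insert haem and copper or hold early intermediates, did not share a direction. The table held 21 and the comparison 18, with 4 at least 3-fold lower, 5 higher and a median change of 0.21, where 13.7% of all genes compared were lower and 13.6% higher. Lower were Coa3 (28.8 and 6.06 FPKM), a partner of newly made Cox1, Cox15 (6.15 and 0.326), of haem A synthesis, and Lrpprc (9.97 and 0.0283), which stabilises mitochondrial mRNA. Higher were Coa6 (2.79 and 21.6 FPKM), of copper delivery, Cox10 (1.38 and 9.28), of haem A synthesis, and the assembly genes Cox16 (2.44 and 10.5) and Pet100 (8.36 and 32.9). Fastkd3 (4.12 FPKM and listed at 0) was also lower and Coa7 (0.234 and 4.21) higher, below the level at which genes were named. Most of these genes were of low level, where the spread over all genes was wide. Cox15 and Cox10 act in the same haem A route and stood on opposite sides.

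**Figure D2:**
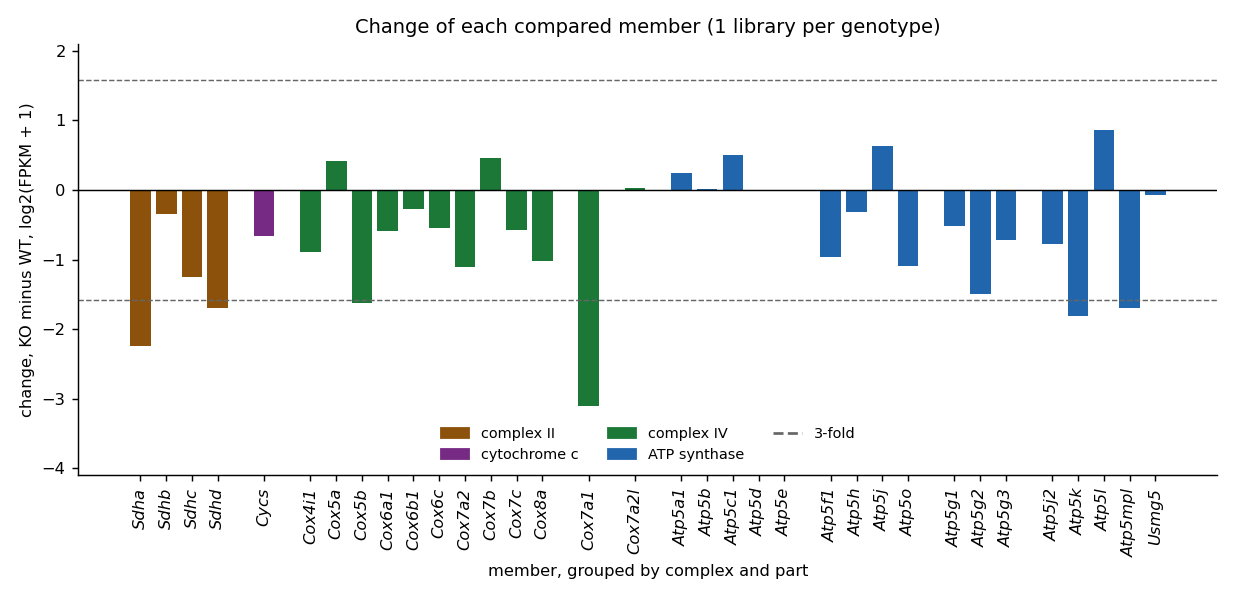
Change of each compared member (y axis, KO minus WT, log2(FPKM + 1)), grouped by complex and part; dashed lines mark 3-fold. All 4 complex II bars are below 0, 6 bars cross the lower line and none crosses the upper; Cox7a1 is listed at 0 in KO, so its bar depends on the pseudocount.

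ATP synthase had 17 genes, all compared, of which 12 had a change below 0, with a median of -0.31 and a summed FPKM of 4315 in WT and 2913 in KO. Its parts differed. The catalytic F1 head stayed close between the libraries: the 5 genes summed to 870 FPKM in WT and 913 in KO. Atp5b, the catalytic beta subunit, was at 177 and 180 FPKM (change 0.02), and Atp5a1, the alpha subunit, at 108 and 128 (change 0.24). Atp5c1, the gamma subunit of the rotating shaft, was at 56.0 and 79.9 FPKM (change 0.50). Atp5d and Atp5e, the delta and epsilon subunits at the foot of the shaft, were at 220 and 217 FPKM and at 309 and 308 FPKM. The lowest change in the head was -0.01, though the signs of Atp5b, Atp5d and Atp5e depended on the scaling or on a length or GC trend, and the ratio of Atp5a1 to Atp5b was 0.613 in WT and 0.714 in KO.

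The membrane ring of c subunits was lower in all 3 of its genes, which encode the same mature protein with different import sequences. Atp5g2 was at 713 FPKM in WT against 251 in KO, 2.84-fold lower (change -1.50). Atp5g1 was at 205 and 143 FPKM (change -0.51), and Atp5g3 at 283 and 171 (change -0.72). The ring summed to 1200 FPKM in WT and 565 in KO, a ratio of 0.471 against 1.05 for the F1 head. Atp5g2 supplied 59.4% of the ring's FPKM in WT and 44.5% in KO, Atp5g3 23.5% and 30.2%, and Atp5g1 17.0% and 25.4%. Atp5g2 shares 87.4% of its 50-base stretches and Atp5g1 66.0% with other genes, so their values are uncertain, whereas Atp5g3 shares none.

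The small membrane subunits, which hold the dimer and shape the inner membrane, summed to 1936 FPKM in WT and 1210 in KO but moved apart from one another. Atp5k, subunit e of the dimer, was at 721 FPKM in WT against 205 in KO, 3.51-fold lower (change -1.81). Atp5mpl (ENSMUSG00000021290, chr12:111961375-111966977, - strand), a small proteolipid of the membrane part, was at 320 and 98.1 FPKM, 3.26-fold lower (change -1.70). Atp5l, subunit g and the direct partner of subunit e, was the member with the largest change upward, at 199 and 362 FPKM (change 0.86). The ratio of Atp5k to Atp5l was therefore 3.63 in WT and 0.566 in KO. Atp5j2, subunit f, was at 320 and 186 FPKM (change -0.78), and Usmg5 (Atp5md, also called DAPIT) at 377 and 358 (change -0.08, of a sign that turned with a length or GC trend removed). Usmg5 shares 40.6% of its 50-base stretches with 4 other genes. Atp5l shares 68.5% of them with 13 other genes, against 1.24% for Atp5k and none for Atp5mpl, so the Atp5l value is the less certain side of this contrast. About 829 and 265 fragments stood behind the Atp5k values and 358 and 123 behind those of Atp5mpl.

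In the peripheral stalk, which keeps the head from turning with the ring, 3 of 4 genes were lower and the sum was 309 FPKM in WT and 225 in KO. Atp5o, the subunit that ties the stalk to the head (OSCP), was at 136 and 62.9 FPKM (change -1.10). Atp5f1, subunit b, was at 22.5 and 11.1 FPKM (change -0.97), and Atp5h, subunit d, at 112 and 90.1 (change -0.31). Atp5j, coupling factor 6, was higher, at 38.8 and 60.9 FPKM (change 0.64). Of these, Atp5f1, Atp5h and Atp5o share 23.2%, 50.5% and 35.5% of their 50-base stretches with other genes. Atpif1, the inhibitor that binds the head when the membrane potential is lost, was at 343 FPKM in WT against 401 in KO. Of the assembly factors, Atpaf1 (0 and 0.940 FPKM) and Atpaf2 (0.846 and 0.527) were below 1 and Tmem70 and Fmc1 at 0.

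**Figure D3:**
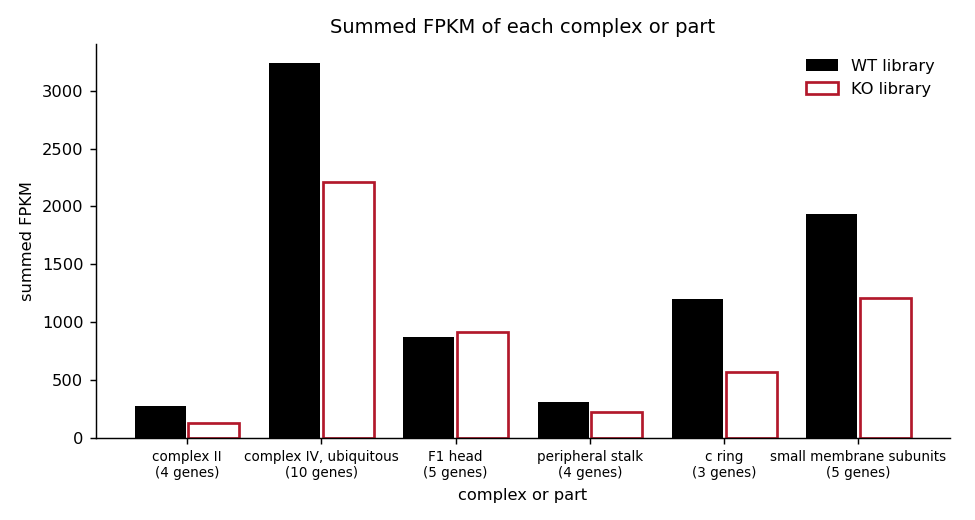
Summed FPKM (y axis, from 0) of each complex or part in the WT library (black) and the KO library (open); bars are single libraries without error. Of the 6 groups drawn, only the F1 head has a KO bar above its WT bar (870 and 913 FPKM), and the c ring goes from 1200 to 565.

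The promoters of 3 subunits of the small membrane part and c ring are shown for comparison, those with the lowest and the highest change in the small membrane part and the lowest in the ring, each as the 150 bases before the RefSeq start in GRCm38.p6: Atp5k (ENSMUSG00000050856) at chr5:108434400-108434549 (- strand), Atp5g2 (ENSMUSG00000062683) at chr15:102671048-102671197 (- strand) and Atp5l (ENSMUSG00000038717) at chr9:44920743-44920892 (- strand). Capitals mark the same letters as above, and in Atp5l they mark CACGTG, an E-box that holds ACGTG on both strands.
Atp5k: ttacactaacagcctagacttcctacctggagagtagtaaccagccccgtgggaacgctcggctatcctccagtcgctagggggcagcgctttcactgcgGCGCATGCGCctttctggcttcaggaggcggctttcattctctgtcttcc
Atp5g2: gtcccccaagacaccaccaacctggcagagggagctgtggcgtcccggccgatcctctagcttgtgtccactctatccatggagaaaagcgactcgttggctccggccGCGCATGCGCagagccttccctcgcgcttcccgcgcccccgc
Atp5l: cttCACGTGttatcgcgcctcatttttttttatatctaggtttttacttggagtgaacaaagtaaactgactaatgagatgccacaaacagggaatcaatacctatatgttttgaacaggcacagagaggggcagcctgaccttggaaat

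Atp5k and Atp5g2, both lower in KO, held 1 NRF1 match each, which begins at -50 and at -42. Atp5l, higher in KO, held none there. Over the RefSeq windows of 250 bases before to 50 after the start, 29 of the 34 compared members had an entry, with 32 windows in all. The NRF1 element occurred in 28.1% of these windows and in 4.603% of all 32851, on either strand. CCGGAAG occurred in 34.4% and 8.86%, AAGATGGC (the element of YY1) in 9.38% and 2.75%, and ACGTG in 31.3% and 19.6%. CACGTG was in 12.5% and 7.15%, and GGGCGG, the GC box of Sp factors, in 40.6% and 35.7%. The 9 members with an NRF1 match had a median change of -1.10 and the 20 without one -0.31. For ACGTG, the 10 members with a match had a median of -0.69 and the 19 without one -0.34. Below 0 were 8 of the 9 members with an NRF1 match, all but Atp5c1, and 14 of the 20 without one, and of the 5 members with a window that were at least 3-fold lower 3 held a match. These counts were not tested, and the same medians over all genes with and without a match are not given here. A match is a run of letters and not a measured binding site.

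Transcript length moved with the change. Most members are short, with a median of 737 nt, and among genes with a mean FPKM of at least 50 those under 1000 nt had a median change of -0.17 (323 genes, 63.2% below 0), against 0.02 for the 1069 longer ones. The 20 members under 1000 nt at this level had a median of -0.59, with 18 below 0 and 3 at least 3-fold lower. Of the 323 genes under 1000 nt, 29 were at least 3-fold lower. The 7 longer members had a median of 0.03, with 2 below 0 and none at least 3-fold lower. Of the 1069 longer genes, 48.5% were below 0 and 8 were at least 3-fold lower. In the range under 600 nt the medians were -0.23 for 107 genes and -0.56 for 10 members. From 600 to 1000 nt they were -0.16 for 216 genes and -0.75 for 10 members. In both of these shorter ranges the median of the members was the lower. From 1000 to 2000 nt the medians were -0.06 for 447 genes and 0.03 for 5 members, of which 1 was below 0. From 2000 to 4000 nt the median was 0.05 for 467 genes, and of the 2 members there Sdhc was below 0 and Atp5a1 above. Left out of these sets, as below this level, were the long members Sdha (2900 nt, change -2.24), Sdhd (1231 nt, -1.70), Atp5f1 (1604 nt, -0.97) and Cycs (3123 nt, -0.66). All of these were lower in KO, so the values for longer members hold for the abundant ones only. The part of length in the result was not tested beyond removing its trend, which left Sdha, Cox7a1 and Atp5k, 3 members, at least 3-fold lower and took the call from Sdhd (-1.53), Atp5mpl (-1.53) and Cox5b (-1.39). Of the 34 members 13 share over 10% of their 50-base stretches with other genes, and without these the median of complex IV was -0.88 and that of ATP synthase -0.01.

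**Figure D4:**
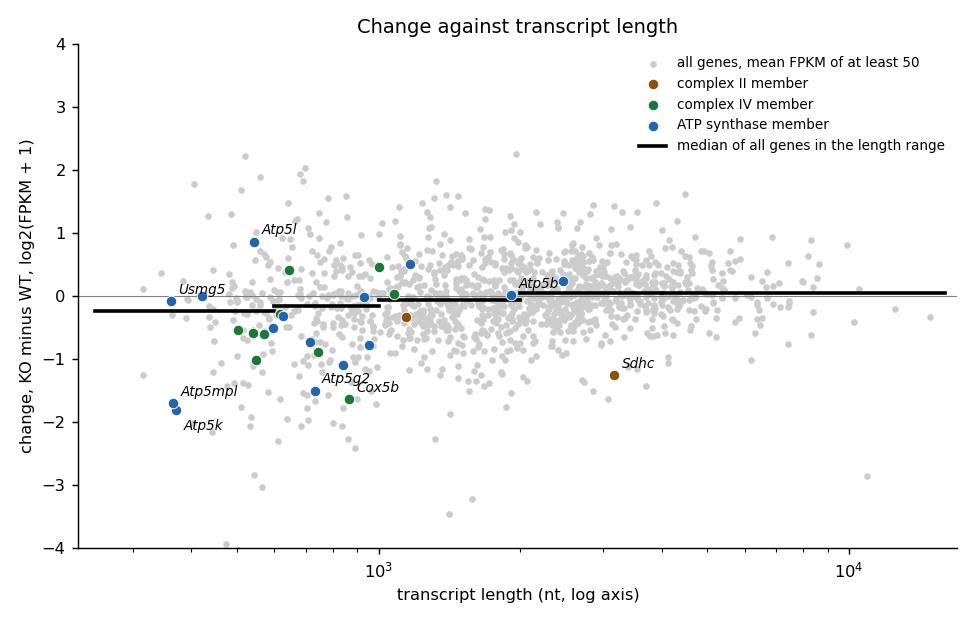
Change (y axis, KO minus WT, log2(FPKM + 1)) against transcript length (x axis, nt, log scale) for 1386 genes with a mean FPKM of at least 50 (grey; 6 more lie outside the axis) and the 27 members at this level (coloured); black lines are medians of all genes by length range. Short members lie mostly below the black lines, while Atp5l lies above and Usmg5 near 0.

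Complexes I and III, the others of the chain, differed in direction from each other. Of 36 complex I subunits 35 were compared, with a median change of -0.93, 23 below 0, 6 at least 3-fold lower and 3 higher. The background of 13.7% lower and 13.6% higher holds here too, and the lower count was near it. Lower were Ndufb5 (84.5 and 13.5 FPKM), Ndufb6 (26.4 and 4.52), Ndufs5 (23.9 and 4.48), Ndufc2 (111 and 25.8), Ndufb9 (139 and 39.8) and Ndufb10 (168 and 52.3), all accessory subunits. Higher were Ndufb2 (0.618 and 16.3 FPKM), Ndufb8 (38.5 and 151) and Ndufs4 (4.46 and 16.4), also accessory subunits. Complex III, which feeds cytochrome c, had a median change of 0.37 over 9 subunits, with 6 above 0 and 1 at least 3-fold lower, Uqcrb (133.6 and 34.5 FPKM). The difference between the complexes was not tested, with 1 library per genotype.

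A further list held mitochondrial genes that are tied to HIF-1 or related to such genes. Ndufa4, now placed in complex IV by biochemical work and named as an older complex I gene, was at 153 FPKM in WT against 30.2 in KO (change -2.31), lower than any ubiquitous complex IV subunit in its change. Higd1a, a hypoxia-induced protein that binds complex IV, was at 43.9 and 17.8 FPKM (change -1.26). Lonp1, a protease that removes Cox4i1 in hypoxia, was at 5.60 and 11.5 FPKM (change 0.93), with Cox4i2 at 0 in both. Bnip3, a mitophagy receptor, was at 1.51 and 8.93 FPKM (change 1.98). Pdk1, which blocks pyruvate entry to the citric acid cycle, was at 4.46 FPKM in WT and listed at 0 in KO, and Ndufa4l2 was at 0 in both. The genes of this list did not share a direction in these libraries.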

How the data were processed

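Libraries were made from poly(A) RNA of sorted ATM, 1 per genotype. The authors deposited 1 table of FPKM values per gene, and no counts were used here; the submitters' processing notes list CASAVA 1.8.2, TopHat2 2.0.9, Cufflinks 2.2.1 and the mm9 build. The KO column is headed as the mutant library and was assigned by its group. Of 20749 rows, 401 were exact repeats and were dropped. A further 18 repeated a gene with other values and were added to that gene's FPKM, which left 20330 genes. Gene positions and transcript lengths came from GENCODE M21 (GRCm38), matched by gene ID, and promoters from RefSeq (GRCm38.p6), so they are not of the files' build. Genes that reached an FPKM of 1 in either library were compared by the difference KO minus WT of log2(FPKM + 1), with the scaling left as deposited, and called past 3-fold, without a test. Every member was named; genes of the pathway lists were named if past 3-fold with an FPKM of at least 5 in a library, or if HIF-1 linked. The members and lists were chosen with earlier results of these data known. Depth was not given: 1 fragment was estimated from the smallest FPKM steps, which follow transcript length shortened by about 190 nt (WT) and 210 nt (KO), so fragment numbers are estimates. Shared sequence was the percentage of a gene's 50-base stretches found in transcripts of other genes. Alternatives were other pseudocounts, filters, scalings, thresholds and a length trend removed. Chosen after seeing the data were a GC trend, abundant genes only and leaving out members that share over 10% of their stretches. The calculation was tested on simulated data. Python 3.11.15, numpy 2.4.6, pandas 2.3.3 and matplotlib 3.10.9 were used.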

Additional observations from a re-analysis of the deposited data

How the results depend on the processing

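Of 367 recomputed values 348 stayed within the allowance, which was 0.2 for a median and 1.5-fold for a member or a count, and no member past 3-fold changed sign. The count of members at least 3-fold lower was 6, and became 4 with a pseudocount of 5, where Sdhd (-1.48) and Cox7a1 lost the call, 3 with the length trend removed, 11 at 2-fold, 3 among genes whose mean FPKM reached 50 and 1, Atp5k, with the length trend of those abundant genes removed; the count of higher members was 0 in all of these. With that last setting the median of all members was -0.36 and that of complex II -0.79, and among genes whose mean FPKM reached 50 complex II stood at -0.80, since only Sdhb and Sdhc are that abundant. The median of complex IV was -0.14 with no filter, where 6 isoforms at 0 enter. It was -0.88 without members that share over 10% of their 50-base stretches, where ATP synthase stood at -0.0085. Cox7a1 was at -6.27 with a pseudocount of 0.1 and at -1.34 with 5. Scaling to the same upper quartile or sum moved the median of all genes to 0.04 and 0.07. Changes near 0 of Atp5b, Atp5d, Atp5e and Usmg5 took either sign, as did the median of the complex II assembly factors (0.05, and -0.06 at a mean FPKM of 5 or more). The median of the complex IV assembly factors, 0.21, was 0.59 over genes with an FPKM of 1 or more in both libraries and 0 with no filter, and that of the HIF-1 linked genes, -1.26, ran from -1.30 to -0.17. No paired analysis was possible because the design holds a single library of each genotype.

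With 1 library per genotype, differences between mice, sorts and library preparations cannot be told apart from genotype. How reads of genes with processed copies were divided is not given in the sources used here. FPKM of transcripts near the fragment length depend on the effective length that was assumed.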
